A study of Mus musculus with 3 samples.

Results

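The angiopoietin-Tie system was examined in ribosome-associated RNA of cardiac endothelial cells as a set of 5 genes: the receptor genes Tek and Tie1, the phosphatase gene Ptprb, and the ligand genes Angpt1 and Angpt2. The genes were taken by their symbols, and all 5 had a row among the 17583 genes of the deposited table. The RNA came from hearts of 3 EC-RiboTag mice (Cdh5-CreERT2;Rpl22tm1.1Psam), in which a tamoxifen-inducible Cre recombinase under the Cdh5 promoter switches the ribosomal protein RPL22 of endothelial cells to a version with a hemagglutinin tag, so that their ribosomes can be immunoprecipitated. The labels place the hearts 7 days after coronary ligation, while the RiboTag methods of the study name no ligation. For a qRT-PCR, its supplement describes EC-RiboTag hearts 7 days after infarction, split into the remote zone and the border plus infarct zones. For RNA sequencing of EC-RiboTag hearts, the supplement names neither infarction nor zone. The sample titles carry the letters hrtRz, which the labels do not spell out. The study uses RZ for the remote zone of infarcted hearts, so whether the tissue was that zone or the whole heart is not settled by the sources used here. The labels give no age. The 3 libraries are biological replicates of 1 condition, and no input or control library was analysed here. The results are therefore levels and their spread between mice, not changes. The Cdh5 promoter is active in blood vascular, lymphatic and endocardial endothelium alike, so the libraries average over these cells.

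Tek (Tie2) is the tyrosine kinase receptor of the angiopoietins in endothelial cells. Angiopoietin-1, made mainly by mural and other perivascular cells, activates it and stabilizes vessels, whereas angiopoietin-2, made by endothelial cells and stored in their granules, can block or activate it depending on context. Tie1 is a related receptor that binds to Tek and modulates its activity. Ptprb encodes the vascular endothelial protein tyrosine phosphatase (VE-PTP), which removes phosphate from Tek and associates with VE-cadherin.

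Values are the normalized counts of the table, that is, read counts divided by a size factor for each library and rounded by the authors to whole numbers. They summed to between 7149102 and 7268785 per library. From the whole numbers that this rounding leaves empty or doubled, the libraries were estimated to rest on about 6755000 to 7566000 reads. Of 12 endothelial marker genes fixed as a list, all 12 had a mean of at least 200, with a median level of 707 ± 15 (SD, n = 3 mice) per 1000 bases of canonical transcript. Markers of other cells were present as well: the medians were 565 ± 19 for 10 cardiomyocyte genes, 92.4 ± 20.1 for 7 fibroblast genes, 43.8 ± 7.0 for 9 mural genes and 27.8 ± 8.6 for the 7 listed leukocyte genes. All 10 cardiomyocyte genes and all 5 lymphatic genes had a mean of at least 200 too, as did 9358 of all 17583 genes. Without an input library, the enrichment of endothelial RNA was not measured here. The study assessed it separately by qRT-PCR of immunoprecipitate against input, with markers of endothelial cells, cardiomyocytes, leukocytes and fibroblasts. In such a bulk preparation, fewer cells of a type and less RNA per cell cannot be told apart.

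The receptor genes were among the abundant transcripts of the endothelial ribosomes. Tie1 (ENSMUSG00000033191), which the table places at 118328388 to 118347258 of chromosome 4 (GRCm39, minus strand), had normalized counts of 2820 in mouse 1, 2765 in mouse 2 and 2618 in mouse 3, a mean of 2734 ± 104 (SD, n = 3). Tek (ENSMUSG00000006386), at 94627526 to 94763213 of the same chromosome (plus strand), had 2510, 2123 and 2376, a mean of 2336 ± 197 (SD, n = 3). Mouse 2 was the lowest for Tek and mouse 3 for Tie1. Ordered by mean count, with rank 1 the highest, Tie1 ranked 60 and Tek ranked 120 of 17583 genes. In single mice the rank of Tie1 lay between 49 and 80 and that of Tek between 91 and 172.

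The start regions of both receptor genes are shown because the pair heads the system in level per length of canonical transcript, as given further on. The RefSeq promoter table, built on GRCm38.p6, matched 2 of the 5 genes, Tek and Tie1, and gives 250 bases before and 50 bases after the start. Ptprb, Angpt1 and Angpt2 are not shown. Capitals mark GGAA or its reverse complement TTCC, the core bound by ETS factors, a family that includes the endothelial regulator ERG. The Tek region is chr4:94739039-94739338 on the plus strand and the Tie1 region is chr4:118489800-118490099 on the minus strand.
Tek: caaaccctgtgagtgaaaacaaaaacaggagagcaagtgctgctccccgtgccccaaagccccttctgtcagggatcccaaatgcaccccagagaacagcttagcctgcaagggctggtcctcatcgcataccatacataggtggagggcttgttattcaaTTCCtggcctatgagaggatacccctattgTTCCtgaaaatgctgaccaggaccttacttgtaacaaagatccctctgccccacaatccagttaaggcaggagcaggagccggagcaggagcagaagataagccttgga
Tie1: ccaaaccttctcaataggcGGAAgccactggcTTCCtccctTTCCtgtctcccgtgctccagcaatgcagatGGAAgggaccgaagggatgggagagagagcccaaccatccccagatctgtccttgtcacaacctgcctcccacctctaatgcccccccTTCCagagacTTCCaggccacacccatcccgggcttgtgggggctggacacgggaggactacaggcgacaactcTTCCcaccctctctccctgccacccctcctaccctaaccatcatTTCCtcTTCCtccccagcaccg
The 300 bases of Tie1 hold 9 such matches and those of Tek hold 2, counted on both strands. Over all 32851 promoters of the table the median was 3 matches, 96.0% had at least 1, and 1.59% had 9 or more. The longer form CNGGAAG, in which N is any base and which contains GGAA, occurred 2 times at Tie1 and not at Tek. On either strand, 31.9% of all promoters hold it at least 1 time and 7.36% at least 2 times. The forkhead motif GTAAACA occurred at neither gene and in 3.65% of all promoters. The GC content was 60.3% at Tie1 and 52.0% at Tek, and its median over all promoters was 52.7%. A match of letters is not evidence of binding, and the ribosome-associated RNA does not measure promoter activity.

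Ptprb had a large count, spread over a long transcript. Ptprb (ENSMUSG00000020154), at 116111428 to 116225440 of chromosome 10 (plus strand), reached 4347, 3891 and 4497 in mice 1, 2 and 3, a mean of 4245 ± 316 (SD, n = 3), and ranked 6 of all genes. Mouse 2 was the lowest of the 3. Ptprb has the longest transcript of the system, with a canonical transcript of 11911 bases in 32 exons, of which 5994 bases are coding. The canonical transcripts of Tek and Tie1 have 4945 and 4094 bases in 23 exons each, and those of Angpt1 and Angpt2 have 4365 and 4662 bases in 9 exons each. A longer transcript gives more reads per molecule, so counts and their ranks do not order the genes by level, and the genes are compared further on after division by length.

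Both ligand genes were detected in every mouse, Angpt1 from few reads. Angpt2 (ENSMUSG00000031465), at 18740279 to 18791578 of chromosome 8 (minus strand), reached 483, 538 and 594 in mice 1, 2 and 3, a mean of 538 ± 56 (SD, n = 3), and ranked 5115. Angpt1 (ENSMUSG00000022309), at 42288119 to 42540373 of chromosome 15 (minus strand), had 99, 57 and 101, a mean of 85.7 ± 24.8 (SD, n = 3), and ranked 11186. Angpt2 was lowest in mouse 1 and Angpt1 in mouse 2. These counts correspond to an estimated 495, 508 and 618 reads for Angpt2 and 101, 54 and 105 reads for Angpt1.

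**Figure D1:**
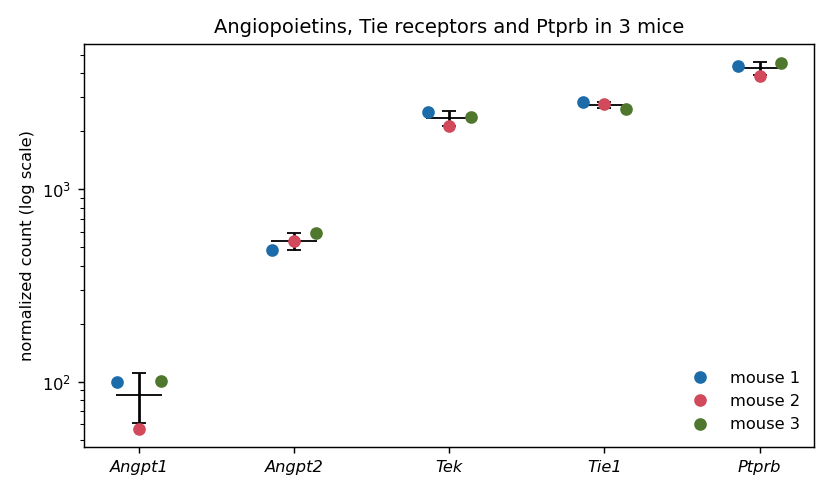
Normalized count (log scale) of Angpt1, Angpt2, Tek, Tie1 and Ptprb, with a colored point for each of 3 mice and a black bar and whiskers for the mean and SD. Before division by length, Ptprb lies highest with a mean of 4245, the receptors lie at 2336 and 2734, Angpt2 lies at 538, and Angpt1 is lowest with mouse 2 below the other mice.

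Divided by the length of the canonical transcript, the receptors rather than the phosphatase had the highest levels. Per 1000 bases of canonical transcript, Tie1 had a level of 668 ± 26, Tek of 472 ± 40, Ptprb of 356 ± 26, Angpt2 of 115 ± 12 and Angpt1 of 19.6 ± 5.7 (SD, n = 3). In single mice Tie1 lay between 639 and 689, Tek between 429 and 508, Ptprb between 327 and 378, Angpt2 between 104 and 127, and Angpt1 between 13.1 and 23.1, so no neighbours in this order overlapped. The order was the same in each of the 3 mice. Among the 9356 genes whose mean reached 200 and that had an annotated length, the median level was 176. Tie1 was within the highest 1.80% of them, Tek within the highest 7.19% and Ptprb within the highest 16.4%, while Angpt2 lay below the median. Per length of all annotated exons the same genes were within the highest 0.55%, 2.20% and 5.64%, and Angpt2, within the highest 39.5%, lay above the median. Angpt1, with a mean under 200, was not among these genes.

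**Figure D2:**
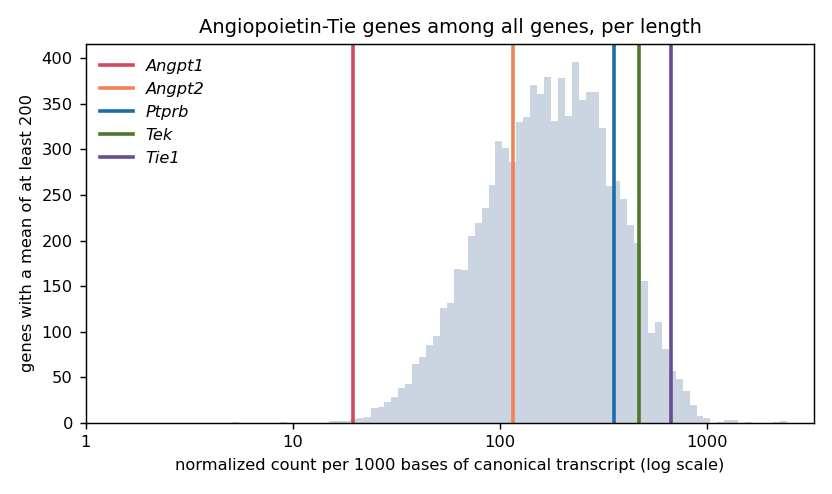
Histogram of the level per 1000 bases of canonical transcript (log scale) of the 9356 genes whose mean normalized count reached 200, with a vertical line at the level of each gene of the system. Tie1 (668), Tek (472) and Ptprb (356) stand above the median of 176, and Angpt2 (115) and Angpt1 (19.6) stand below it, although Angpt2 lies above the median per length of all annotated exons, and Angpt1 itself is not part of the histogram.

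The 10 pairs of genes were compared by the log2 ratio of their levels per length within each mouse. All 10 ratios had the same sign in 3 of 3 mice, and each gave the smallest p that 3 mice allow (exact sign-flip permutation test, two-sided p = 0.25, adjusted p = 0.25 over 10 pairs), so no ratio could pass a test at the usual threshold. The log2 ratio of Tie1 to Tek was 0.50 ± 0.13 (SD, n = 3), a 1.42-fold difference, and 0.22 ± 0.13 per coding length. That of Tek to Ptprb was 0.41 ± 0.06, or 1.32-fold, and -0.03 ± 0.06 per coding length. Per canonical length, both were larger than their spread between mice. The ratio of Ptprb to Angpt2 was 1.63 ± 0.17, or 3.09-fold, and 0.97 ± 0.17 per coding length. The ratio of Angpt2 to Angpt1 was the most variable of these neighbours at 2.60 ± 0.49, or 6.06-fold, with 2.19 in mouse 1, 3.14 in mouse 2 and 2.46 in mouse 3. The log2 ratio of Tek to its activating ligand gene Angpt1 was 4.63 ± 0.36, or 24.8-fold, and 3.64 ± 0.36 per coding length.

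As shares, Tek made up 41.4% ± 2.2 (SD, n = 3) of the summed level per length of both receptors, with 42.4%, 38.9% and 42.9% in mice 1, 2 and 3. Angpt2 made up 85.5% ± 4.0 of the summed level of both ligands, with 82.0%, 89.8% and 84.6%. The ligands together reached 11.9% ± 1.5 of the summed level of the receptors per canonical length. This value depended on the scale, with 28.1% ± 3.4 per coding length and 8.19% ± 1.19 after the correction for removed duplicates described further on. Angpt2 was the major ligand transcript on each of these scales. The shares cover RNA recovered with endothelial ribosomes, whereas angiopoietin-1 is made mainly by mural and other perivascular cells. They therefore do not give the balance of the ligands in the heart. Which cells the Angpt1 reads came from was not tested.

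The place of Ptprb among these genes depended on which length was used. Without division by length it stood above both receptors, with a log2 ratio of Tek to Ptprb of -0.86 and of Tie1 to Ptprb of -0.63. Per 1000 bases of all annotated exons the order of the canonical transcripts held, with 547 ± 21 for Tie1, 389 ± 33 for Tek and 296 ± 22 for Ptprb. Per 1000 coding bases, a length chosen after the values were known, Ptprb had 708 ± 53 and Tek 693 ± 58, and their log2 ratio of -0.03 ± 0.06 was smaller than its spread between mice. Tie1 had 804 ± 31 on this scale, Angpt2 362 ± 37 and Angpt1 57.3 ± 16.6. Which transcript ends are present in the RNA was not tested. Tie1 exceeded Tek, and Angpt2 exceeded Angpt1, on each of these scales.

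**Figure D3:**
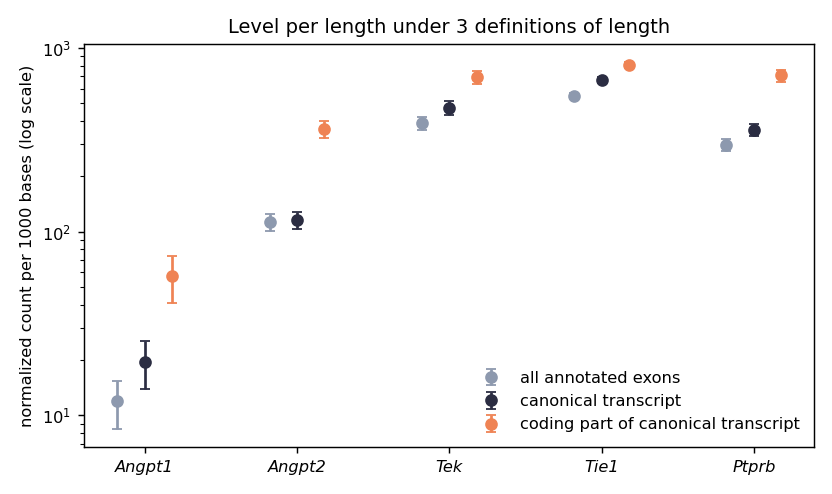
Normalized count per 1000 bases (log scale) of each gene under 3 definitions of length, as mean and SD of 3 mice. Ptprb lies below Tek per canonical transcript (356 against 472) and level with it per coding length (708 against 693), whereas Angpt1 and Angpt2 stay lowest under all 3 definitions.

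The authors removed duplicate reads, which limits the reads that highly expressed transcripts can have. With at most 1 read per start position, a transcript would reach about 1000 reads per 1000 bases, although 14 genes had more than 1000 normalized counts per 1000 bases of their canonical transcript. Tie1, at 668 normalized counts per 1000 bases, was nearest to this value among the 5 genes. When levels were corrected for it under an even spread of start positions, an alternative chosen after the values were known, Tie1 had 1107 ± 76, Tek 644 ± 85 and Ptprb 442 ± 46 per 1000 bases, and the order of the 5 genes was kept. The log2 ratio of Tie1 to Tek was then 0.79 ± 0.16. Reads that overlap several genes on the counted strand were left out by the authors. No exon of another gene on the same strand overlaps an exon of the 5 genes in the annotation. On the opposite strand, the exons of Gm70435 share 238 bases with those of Tie1, the exons of Gm66901 share 165 bases with those of Ptprb, and the exons of Gm17473 share 815 bases with those of Angpt1. Angpt2 lies within Mcph1 on the opposite strand, whose exons share 3387 bases with those of Angpt2. Mcph1 had 145, 240 and 207 normalized counts in mice 1, 2 and 3. Reads were counted by strand. No window of 72 bases, the read length, of the 5 canonical transcripts had an exact copy elsewhere in the genome.

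Of the 5 genes, Angpt1 varied most between mice. The coefficient of variation was 3.82% for Tie1, 7.43% for Ptprb, 8.41% for Tek, 10.3% for Angpt2 and 29.0% for Angpt1. Counting alone would give 1.91%, 1.53%, 2.06%, 4.30% and 10.7%, which is below the observed coefficient for each gene. After the correction for removed duplicates the coefficients were 6.83% for Tie1, 10.5% for Ptprb, 13.2% for Tek, 11.1% for Angpt2 and 29.3% for Angpt1. Tek then varied more than Angpt2. A coefficient over 20% was found for none of the 4 genes whose mean reached 200, where 8.00% of 9358 genes had one. With a lower minimum of 50, chosen after the values were known so as to include Angpt1, 1 of the 5 genes exceeded 20%, against 14.9% of 11956 genes. Among the 1331 genes within 1.5 times the level of Angpt1, the median coefficient was 18.6%, and 75.4% of them varied less than Angpt1. The value for Angpt1 rested on mouse 2, without which its coefficient was 1.41%.

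Mouse 2 had the lowest value for Tek, Ptprb and Angpt1, that is, for 3 of the 5 genes, and 28.5% of the 9358 genes whose mean reached 200 were lowest in this mouse. Tie1 was lowest in mouse 3 and Angpt2 in mouse 1, where 31.8% of all these genes were lowest. Lists of marker genes shifted between the same mice. Of the 5 endocardial genes, 4 were lowest in mouse 2, and their summed normalized count was 3008, 1934 and 4391 in mice 1, 2 and 3. Npr3, a natriuretic peptide receptor and the highest of them by count, had 1589, 914 and 2228. The mural genes Kcnj8 and Abcc9, which encode the potassium channel subunits of cardiac pericytes, had 138, 85 and 119 and 383, 301 and 396, and were also lowest in mouse 2, as was Angpt1. These genes were picked out after their values were seen and are the 2 of 9 mural genes that were lowest in mouse 2. The mural genes Rgs5 (542, 615 and 505) and Cspg4 (134, 295 and 186) were highest in that mouse, and 6 of the 9 were lowest in mouse 1. The summed mural count was 1755, 2218 and 2500.

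Angpt2 was lowest in mouse 1, as were all 5 lymphatic genes, 6 of 9 mural, 5 of 7 fibroblast and 5 of 7 leukocyte genes. The summed lymphatic count, which includes the lymphatic regulator Prox1 and the receptor gene Flt4, was 3006, 3717 and 4316 in mice 1, 2 and 3, against 483, 538 and 594 for Angpt2. The summed fibroblast count was 2703, 3229 and 3515, and the summed leukocyte count was 573, 815 and 791. The summed cardiomyocyte count was 20679, 21339 and 24237, with 4 of the 10 genes lowest in mouse 1 and 6 in mouse 3. The summed count of the 12 endothelial genes differed much less, with 26163, 25578 and 25271. No list was at 0 in any mouse, although the leukocyte gene Cd79a had 1, 10 and 0. The part of these cell types in the spread of Angpt1 and Angpt2 was not tested.

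**Figure D4:**
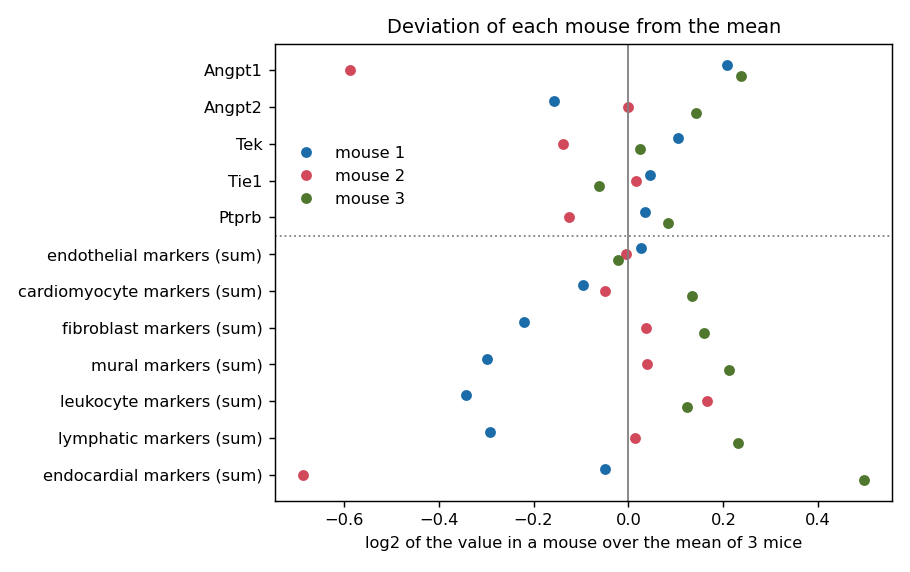
Log2 of the value in each mouse over the mean of 3 mice, for the 5 genes (above the dotted line) and for the summed normalized count of 7 marker lists (below it). Angpt1, Tek, Ptprb and the endocardial sum lie lowest in mouse 2 (log2 of -0.59, -0.14, -0.13 and -0.69). Angpt2 and the cardiomyocyte, fibroblast, mural, leukocyte and lymphatic sums lie lowest in mouse 1. Tie1 and the endothelial sum stay within 0.07 of the mean.

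Set against the lists of cell markers per canonical length, the receptors stood near the endothelial genes and also near the cardiomyocyte genes. The log2 level of Tie1 over the median of the 12 endothelial genes, per canonical length, was -0.08 ± 0.04 (SD, n = 3), that of Tek -0.58 ± 0.15 and that of Ptprb -0.99 ± 0.14. Per length of all annotated exons these values were 0.56, 0.06 and -0.33, so whether the receptors lay above or below the endothelial median depended on the length used. Over the median of the cardiomyocyte genes, per canonical length, Tie1 had 0.24 ± 0.03, Tek -0.26 ± 0.15 and Ptprb -0.67 ± 0.15. Tek and Ptprb were thus nearer to the cardiomyocyte median, so these levels do not single out the endothelial list. The log2 level over the endothelial median was -2.62 ± 0.16 for Angpt2 and -5.22 ± 0.50 for Angpt1. Angpt2 exceeded the median of the mural genes by 1.41 ± 0.11 and that of the lymphatic genes by 1.00 ± 0.26. It exceeded the fibroblast median by 0.34 ± 0.24. Angpt1 lay below all 3 medians, with log2 levels of -1.19 ± 0.42 over the mural, -1.60 ± 0.73 over the lymphatic and -2.26 ± 0.73 over the fibroblast genes.

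Of the 3 other ligand genes of the Tie receptors, Angpt4 and Lect2 were near the lower end of the table, which holds no gene whose highest value is under 4. Angpt4, the third angiopoietin of the mouse, was at 0, 6 and 6 in mice 1, 2 and 3. Lect2, a secreted protein that binds Tie1, had 4, 7 and 5. Svep1, a large matrix protein that also binds Tie1, had 61, 137 and 138, and was lowest in mouse 1. None of the 3 had a mean of at least 200, and per 1000 bases each was below Angpt1. Of the 6 angiopoietin-like genes, which encode related secreted proteins that do not bind Tek, 2 had a mean of at least 200. Angptl4, an inhibitor of lipoprotein lipase, had 440 ± 81 and Angptl2 had 352 ± 78 (SD, n = 3). Angptl4 had 133 ± 25 per 1000 bases, a level close to that of Angpt2, and the 4 others had mean counts between 3 and 62.7.

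The measured relatives of Ptprb were far lower than Ptprb per length. Of the 4 other receptor phosphatases of its subfamily, Ptprj, which encodes the density-enhanced phosphatase DEP-1, had 170, 210 and 280 normalized counts in mice 1, 2 and 3, and Ptpro had 12, 21 and 17. Per 1000 bases these are 28.8 ± 7.3 and 3.16 ± 0.85, against 356 ± 26 for Ptprb. Ptprh and Ptprq were not analysed here. The genes of proteins on which Ptprb acts, or with which it associates, were abundant as well. All 4 were above the background median of 176 per 1000 bases, with 713 ± 15 for Cdh5 (VE-cadherin), 687 ± 21 for Jup (plakoglobin), 554 ± 13 for Kdr (VEGF receptor 2) and 330 ± 53 for the exchange factor gene Fgd5.

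The integrin genes split into an abundant and a low pair. Itgb1 had a level of 486 ± 19 and Itga5 of 285 ± 40 per 1000 bases, which encode the subunits of the fibronectin receptor, whereas Itgb3 had 44.4 ± 16.4 and Itgav 40.4 ± 7.0. Each of the 4 was lowest in mouse 1. The sheddase genes Adam10 and Adam17, whose products cut receptor ectodomains, had 385 ± 11 and 261 ± 7 per 1000 bases, and the matrix metalloproteinase gene Mmp14 had 164 ± 40 with a coefficient of variation of 24.6%.

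Among 10 genes of adaptors and enzymes recruited to active Tek, 7 had a mean of at least 200, and 5 of these were above the background median per length. Grb2, the general adaptor to Ras signaling, had 436 ± 18 per 1000 bases, and Ptpn11, the phosphatase SHP2, had 363 ± 7. Pik3r1 and Pik3ca, which encode the regulatory and catalytic subunits of phosphoinositide 3-kinase, had 147 ± 3 and 122 ± 7. Of the other adaptors, Nck1 had 281 ± 30, Shc1 262 ± 22 and Tnip2 187 ± 22 per 1000 bases. Grb14, Dok2 and Grb7 were lower, with 88.0 ± 26.3, 16.0 ± 3.9 and 4.02 ± 2.29 per 1000 bases. Their mean counts were 177 ± 53, 29.3 ± 7.1 and 9.67 ± 5.51. Downstream, all 6 genes of the Akt and Foxo families had a mean of at least 200, as did 9358 of all 17583 genes. Akt1 was the highest of them with 589 ± 9 per 1000 bases. Foxo1, the factor that induces Angpt2 and is restrained by Akt, had a count of 1453 ± 64 (1523, 1397 and 1439 in mice 1, 2 and 3) and a level of 168 ± 7 per 1000 bases.

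Genes that Foxo1 induces or that mark sprouting endothelium were all present with a mean of at least 200, and 5 of 6 lay above the background median per length. Apln, the ligand gene of the apelin receptor, had 600 ± 101 per 1000 bases, Plvap 409 ± 36, Cxcr4 352 ± 64, Esm1 223 ± 27, Cited2 180 ± 41 and Pgf 175 ± 48. Angpt2, with 115 ± 12, was lower than each of the 6. Their mice did not follow that of Angpt2 as a group: Apln, Pgf and Plvap were lowest in mouse 1, Cited2 in mouse 2, and Esm1 and Cxcr4 in mouse 3.

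**Figure D5:**
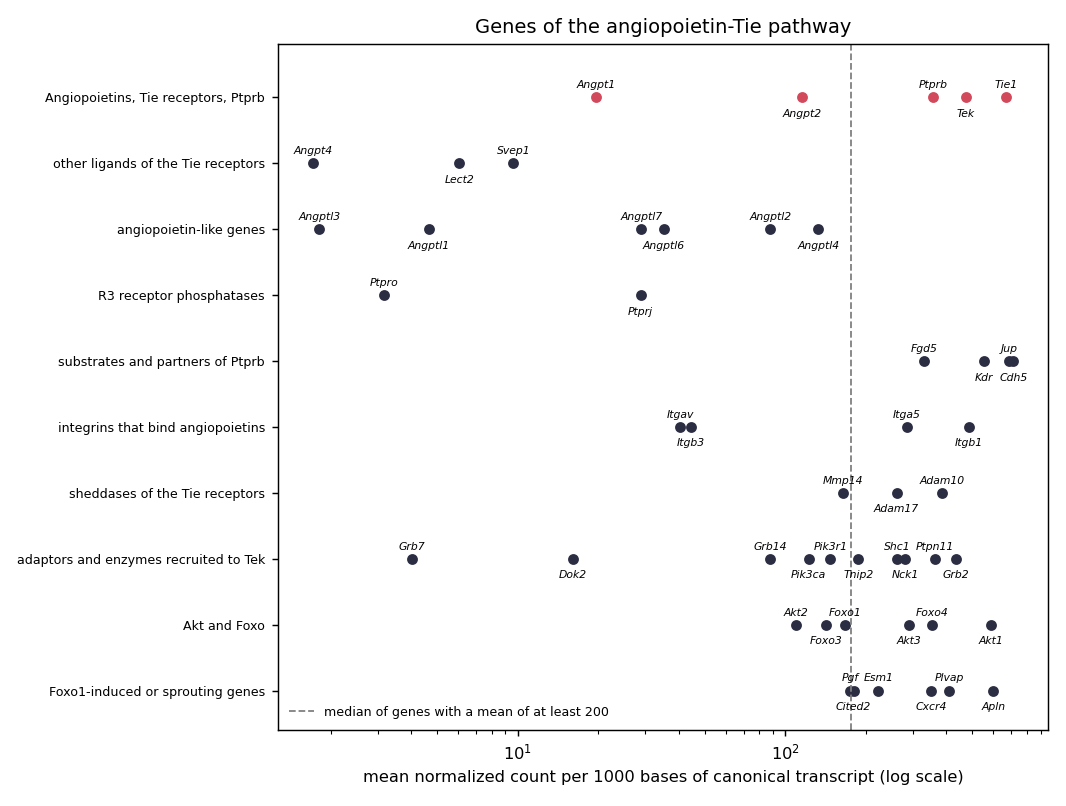
Mean normalized count per 1000 bases of canonical transcript (log scale) of the listed genes of the angiopoietin-Tie pathway, one row per group, with the 5 genes of the system in red and a dashed line at the median of 176 over genes whose mean reached 200. The receptors, Ptprb, its partners and the sprouting genes lie mostly at or above the line, whereas Angpt4, Lect2, Svep1, Ptprj and Ptpro lie far below it.

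The genes nearest in level over the 3 mice were named by the distance of their log2 counts, over 14241 other protein-coding genes and 3 samples. For Tek these were Mllt6 (2583, 2037 and 2356) and Arap3 (2408, 2147 and 2460). For Tie1 they were Cd36 (2832, 2691 and 2565) and Aplp2 (2717, 2771 and 2621), and for Ptprb Ahnak and Tns1. For Angpt2 they were Ctbp2 (483, 539 and 591) and Dmxl1 (483, 544 and 606), and for Angpt1 Adam11 (95, 56 and 93) and Tnf (97, 52 and 92). Such nearness is a likeness of counts, which depend on length, and with 3 mice it says nothing of a shared pattern.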

How the data were processed

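RNA bound to hemagglutinin-tagged ribosomes was immunoprecipitated from hearts of 3 EC-RiboTag mice and sequenced (72-base reads from 1 end). The authors trimmed reads with Trimmomatic 0.39, aligned them with STAR 2.7.11a to mm39, removed duplicates (Picard 3.1.1) and multi-mapping, ribosomal and mitochondrial reads, counted reads on exons on the correct strand with featureCounts 2.0.4, and normalized the counts with DESeq2 1.36.0. The deposited values are such normalized counts rounded to whole numbers, a score rather than raw counts, so no count model was run. All 3 columns were used, matched to samples by title.

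Levels are the mean and SD over mice. The worth of 1 read was estimated as 0.977, 1.06 and 0.961 normalized counts in the 3 libraries, with a procedure tested on simulated data. Intervals for counting are limited to the coefficient that the estimated reads give. Lengths are from GENCODE release M39 (GRCm39), which is newer than the authors' annotation and held 17475 of 17583 genes (99.4%). The gene coordinates given are those of the table. Copies of read-length windows were searched with BLAST 2.17.0. Pairs were tested on log2 ratios within mice with the exact sign-flip permutation test. Computations used Python 3.11.15, numpy 2.4.6, pandas 2.3.3 and matplotlib 3.10.9.

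Named genes were the 5 genes, the genes of the pathway and marker lists, and for each of the 5 the 2 protein-coding genes nearest in log2(normalized count + 1) over the mice. The members and lists were chosen with earlier results of these data known. Alternatives were other scalings, lengths, pseudocounts, filters, list summaries and leaving out each mouse.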

Additional observations from a re-analysis of the deposited data

How the results depend on the processing

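All 10 ratios kept their direction with each mouse left out, with pseudocounts of 1 and 5, per length of all annotated exons and after correction for removed duplicates. Without division by length, the log2 ratio of Tie1 to Ptprb reversed to -0.63 and that of Tek to Ptprb to -0.86, and per coding length, which was added after seeing the data, the latter was -0.031. Mean counts moved by less than 1 SD under scaling by trimmed means of log ratios, equal totals and with each mouse left out. Ranks of 17475 genes with a length moved: per canonical length Tek ranked 673, Tie1 168, Ptprb 1535, Angpt1 12112 and Angpt2 6844, and per length of all annotated exons Tek ranked 208, Ptprb 531, Angpt1 12095 and Angpt2 3754. Per coding length the share of Tek in both receptors was 46.3% and the ligands reached 28.1% of the receptors. After correction for removed duplicates these were 36.7% and 8.19%, and per length of all annotated exons the share of Angpt2 in both ligands was 90.4%. These scales of the shares were added after seeing the data.

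Relative to the median of the endothelial genes, log2 levels per length of all annotated exons were 0.065 for Tek and 0.56 for Tie1, which reversed, and -0.33 for Ptprb and -1.73 for Angpt2. With the mean of log2 levels of the list in place of the median they were -0.43 for Tek, 0.072 for Tie1, which also reversed, and -0.84 for Ptprb. Angpt2 over the fibroblast median was 1.22 per length of all annotated exons and 0.67 with the mean of log2 levels, over the mural median 1.97 per length of all annotated exons, and over the lymphatic genes 0.34 with the mean of log2 levels. The other values over the endothelial, fibroblast, mural and lymphatic lists moved by less than 1 SD. Values over the cardiomyocyte list were not recomputed under these alternatives. The cause of these moves was not tested beyond the change of length or summary itself.

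The number of genes with a coefficient of variation over 20% was 749 with a mean of at least 200, 1273 with a mean of at least 100 and 6305 without a filter. Leaving out a mouse gave from 455, without mouse 1, to 921. Of the 5 genes, 1 exceeded 20% (Angpt1), and leaving out a mouse gave from 0, without mouse 2, to 1. Depth limits Angpt1, which rests on an estimated 54 to 105 reads per mouse. No paired analysis was possible because all 3 libraries belong to 1 group, so that no groups share replicate numbers (the ratios compare genes within a mouse).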
